A study of Mus musculus with 8 samples.

Results

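The baseline transcriptome of mouse embryonic fibroblasts (MEFs) was read from the 3 libraries of untreated cells among the 8 samples of the series. The members were taken by their label, as the cells given RHPS4 at 0 µM, and no treated library was used. The choice of these samples and of the gene lists was made with earlier results of these data known. RHPS4 is a small molecule that binds G-quadruplexes, which are stacked structures of guanine-rich nucleic acid. The cells were wild type MEFs grown below confluence in DMEM with glucose, and total RNA was made into stranded libraries after depletion of nuclear ribosomal RNA, so RNAs without a poly(A) tail were kept. The sources do not say whether the 3 libraries came from separate cultures, so an SD given here may hold only technical spread. Neither a strain nor a passage or immortalization state was given in the sources used here.

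MEFs are mesenchymal cells of the embryo body that grow on plastic. They build the fibrillar extracellular matrix, pull on it through actin and myosin cables, and keep part of the positional identity of their place of origin in the pattern of their Hox genes. Many housekeeping functions are carried by families of similar genes (paralogs), of which 1 member is often the general form and the others belong to muscle, liver, brain or germ cells.

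Libraries 1, 2 and 3 held 10455965, 21057338 and 26688121 counted fragments, of which 14.4, 13.5 and 13.2% were on mitochondrial DNA (mtDNA). Of 24421 nuclear genes, 20694, 22389 and 22479 had a count. A count of 0 allows up to 0.288, 0.141 and 0.113 CPM (counts scaled by library size, 3 counts of the total, counting error only). Library 1 stood apart before any result: over 9967 genes with a mean of at least 5 CPM, the SD of the log2 ratio was 0.27 between libraries 1 and 2 and 0.28 between 1 and 3, but 0.12 between 2 and 3. Library 1 also had the lowest depth. The levels of the leading genes are therefore given by library, and the genes behind the difference are described last.

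The most abundant nuclear transcripts were those of protein synthesis, the cytoskeleton, glycolysis and the matrix. By CPM, which grows with transcript length, the elongation factor gene Eef1a1 led with 16109, 13449.8 and 13065 in libraries 1, 2 and 3. Rn45s, the precursor of ribosomal RNA that depletion left behind, followed with 10832, 13395 and 17517, and it was lowest in library 1 and highest in library 3. Actb, the cytoplasmic beta-actin, had 6133, 5575 and 5575 CPM. The nuclear long non-coding RNA Malat1 had 3598, 5922 and 5923 CPM and was the only one of these 4 in which libraries 2 and 3 lay close together with library 1 far below them.

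Matrix and cytoskeletal genes filled much of the next ranks. Ahnak, a giant scaffold protein of the cell cortex, had 3519.8, 4264 and 4599 CPM, and Fn1, the fibronectin that cells assemble into fibrils, had 2939, 3888 and 3972. Vim, the intermediate filament of mesenchymal cells, had 3949, 3168 and 3284. In Ahnak and Fn1 library 1 lay lowest and in Vim it lay highest. Col1a2, a chain of type I collagen, was nearly level at 3005, 2952 and 2976 CPM, and Spp1, the secreted phosphoprotein osteopontin, had 3144, 2696 and 2816. Flna, an actin crosslinker of the cortex, had a mean of 2214 ± 51.5 CPM (SD, n = 3), Col6a3 of microfibrillar collagen VI had 2147 ± 90.01 CPM, and Plec, the cytolinker plectin, had 1679 ± 241.

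The remaining genes of the leading 30 had varied roles. Eef2, the translocase of elongation, had a mean of 3193 ± 352 CPM, and Pkm, the pyruvate kinase of glycolysis, had 3010.5 ± 411. Hsp90ab1 and Hspa8, the constitutive cytosolic chaperones, had 2811 ± 168 and 2538 ± 354 CPM. Scd2, a fatty acid desaturase, had 2434 ± 109 CPM, Nedd4, a ubiquitin ligase, 2309.9 ± 47.5, Ddb1, an adaptor of CUL4 ubiquitin ligases, 1429.9 ± 75.4, and Lrp1, an endocytic receptor, 1368 ± 155. Other members were Lgals1, Tubb5, Rplp1, Rplp0, Npm1, S100a6, Rpph1, Rpsa and Rps12. The 30 genes together held 11.5% ± 0.143 of the nuclear counts (SD, n = 3), so no few genes dominated the nuclear counts. To reach 50% of them, 927, 979 and 964 genes were needed in libraries 1, 2 and 3. Of all counts, RNR2 of mtDNA alone took 11.3, 9.25 and 8.84%. Library 1 had the highest value of the 3 in 18 of the 30 genes, the lowest in 10 and the middle one in 2. This is no trait of the leading genes alone. Over the 9967 genes with a mean of at least 5 CPM, library 1 was highest in 4374 and lowest in 4262.

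**Figure D1:**
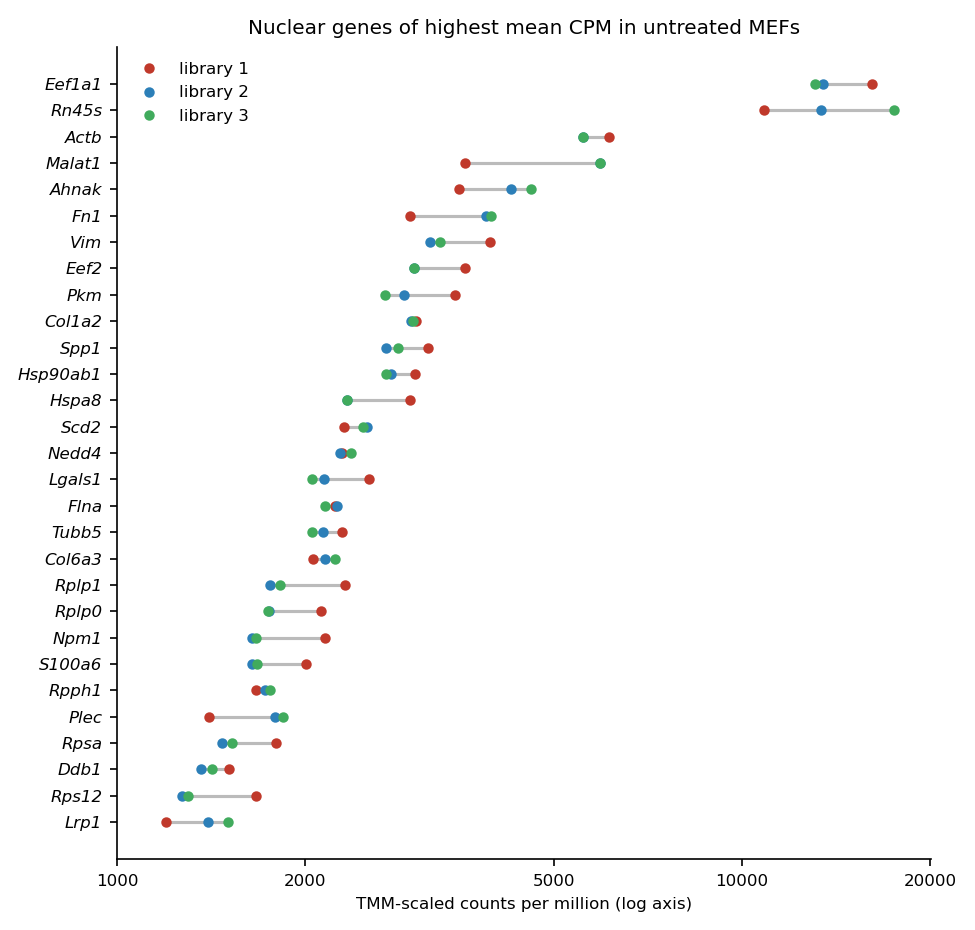
CPM, scaled by TMM, of nuclear genes among the 30 with the highest mean, on a log axis, with a point for each untreated library. Eef1a1 and Rn45s lie highest. The red point of library 1 is at an end of the range in most genes, as it also was over all genes tested.

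Dividing by length changed which genes led. TPM (counts per base of merged exons scaled to the same sum in each library) put short genes forward: 11 of the 30 genes leading by CPM had more than 5000 bases of merged exons but 0 of the 20 leading by TPM, and 13 genes were in both. Eef1a1 led again with 24271 ± 1827 TPM (mean ± SD, n = 3). Rpph1, the RNA of ribonuclease P, had 16564 ± 1056 TPM and Rmrp, the RNA of ribonuclease MRP, had 11415 ± 199.6, both being short structured RNAs without a poly(A) tail. Rplp1, a protein of the ribosomal stalk, had 12067 ± 1337 TPM, but only 54.1% of its 75-base stretches occur in no other annotated gene, so its level is uncertain.

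Small secreted and calcium-binding proteins stood beside the ribosome by length-scaled level. Lgals1, the galectin-1 lectin, had 9262, 8499 and 8029.9 TPM in libraries 1, 2 and 3, S100a4, a calcium-binding protein much used as a fibroblast marker, 9219, 7454 and 7614, and S100a6, its neighbour in the S100 family, 7259, 6429.6 and 6479.9. All 3 were highest in library 1. Spp1 had 5369.9 ± 206 TPM and Gsta4, a glutathione transferase for lipid aldehydes, 3364 ± 275. Hist2h2bb, a histone H2B gene, stood at 3737 ± 202 TPM with 0% of its stretches unique, so that value cannot be assigned to the gene. Of the 100 genes leading by TPM, 48 coded for cytosolic ribosomal proteins, 6 for translation factors, 4 for glycolytic enzymes, 3 for actin cytoskeleton and adhesion, 2 for microtubules or intermediate filaments, 2 for heat shock proteins and 1 for a collagen. The 20 leading genes held 15.6, 14.3 and 14.1% of all TPM. By class, protein-coding genes took 96.6% ± 0.522 of the nuclear counts and long non-coding RNAs 1.08, 1.41 and 1.36%.

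The starts of the most abundant genes were read from the RefSeq promoter table of build GRCm38.p6, which gives 250 bases before to 50 after each start, because a TATA box is a known feature of some strongly expressed genes. The letters TATAAA were searched on the gene's strand at 45 to 15 bases before the start. They stood in 7 of the 132 genes with an entry among the 200 of highest TPM (5.303%), beside 639 of all 27025 promoters (2.36%), 100 of 8872 genes at 1 TPM or more in every library (1.13%) and 339 of 7070 genes below 1 TPM in every library (4.79%). The 7 are printed 5′ to 3′ from 50 bases before to 10 bases after the start, with TATAAA in capitals, in order of TPM.
S100a4: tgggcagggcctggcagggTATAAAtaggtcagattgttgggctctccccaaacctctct
Vim: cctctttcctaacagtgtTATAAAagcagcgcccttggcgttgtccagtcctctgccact
Ppia: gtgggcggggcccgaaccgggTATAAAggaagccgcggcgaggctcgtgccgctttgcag
Anxa1: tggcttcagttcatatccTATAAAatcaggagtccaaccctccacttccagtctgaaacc
Prdx1: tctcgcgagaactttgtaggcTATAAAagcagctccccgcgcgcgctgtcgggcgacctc
Rpl22l1: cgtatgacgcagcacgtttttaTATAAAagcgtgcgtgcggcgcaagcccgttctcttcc
H3f3b: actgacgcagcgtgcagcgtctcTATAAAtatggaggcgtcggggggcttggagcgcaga

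These stretches are S100a4 at chr3:90603720-90603779 (plus strand), Vim at chr2:13574261-13574320 (plus), Ppia at chr11:6415817-6415876 (plus), Anxa1 at chr19:20390662-20390721 (minus), Prdx1 at chr4:116685549-116685608 (plus), Rpl22l1 at chr3:28805458-28805517 (plus) and H3f3b at chr11:116024495-116024554 (minus). The first base of the capitals lay 31, 32, 29, 32, 29, 28 and 27 bases before the start in that order. Ppia codes for the proline isomerase cyclophilin A and had 1495 ± 94.5 TPM, Anxa1 for the membrane-binding annexin A1 with 931 ± 56.9, and Prdx1 for a peroxidase of the cytosol with 778 ± 61.99. Rpl22l1 codes for a ribosomal protein and H3f3b for a histone that is made throughout the cell cycle. Among genes of cytosolic ribosomal proteins TATAAA stood in 1 of 62 (1.61%).

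Over the whole table the GC box was more frequent among expressed genes, but not among the 50 of highest TPM. The GC box GGGCGG, searched on both strands in the 100 bases before the start, stood in 48.8% of genes at 1 TPM or more and in 17.3% of genes below it, with 44.7% among the 200 highest and 25.2% over all promoters. Among the 50 highest it stood in 8 of 32 with an entry (25%) and among cytosolic ribosomal protein genes in 33.9%. CCAAT, searched in the same way, varied less, with 24.2, 18.2, 25 and 19.6%. No motif contains another. A match describes the letters of the window and is no measurement of a bound factor. Among the genes named above, the table held no entry for Rpph1, Rmrp, Rplp1, Actb, Lgals1, Hist2h2bb, Hsp90ab1, Gsta4, Hspa8, Rn45s, Fn1, Scd2, Npm1 and Plec.

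The fibroblast markers that go with the label were expressed. The 4 genes used to check the label were all expressed: the collagen I chain gene Col1a1 at chr11:94936224-94953042 had 377, 571 and 649.6 TPM in libraries 1, 2 and 3. Its partner Col1a2 at chr6:4504814-4541544 had 1646, 1748 and 1739.8 TPM. Vim had 5275, 4574 and 4682 TPM, and Pdgfrb, the PDGF receptor of mesenchymal cells, had 116, 128 and 129. Col1a1 was the least even of the 4, with library 1 at -0.59 on the log2 CPM scale against the mean of libraries 2 and 3. Of a list of 40 fibroblast and mesenchyme genes, 33 were present, which here means at least 1 TPM in every library.

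The highest 5 of that list were S100a4, Vim, Col1a2, Serpinh1 and Fn1. Serpinh1, the collagen chaperone of the endoplasmic reticulum, had 1355 ± 86.8 TPM, and Fn1 had 1311 ± 255.8. Sparc, a collagen-binding matrix protein, followed with 1181 ± 24.6 TPM and Col6a1 with 713 ± 28.4. Thy1, a surface marker of many fibroblasts, was much lower at 11.2, 11.6 and 10.6 TPM. Among the members below the threshold, Cd34 had a mean of 0.847 TPM, Nt5e 0.621, Dpp4 0.526, Fap 0.524 and the transcription factor Tcf21 0.0211. The summed TPM of the list was 26782, 25482 and 25686.

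Few markers of unrelated cell types were present. As a gauge of that background, 1 of 1107 olfactory receptor genes, which fibroblasts are not known to use, reached 1 TPM in every library, with a median of 0.0788 TPM. Of the skeletal muscle list 0 of 14 were present, of the epithelium and keratinocyte list 0 of 14, and of the pluripotent and germ line list 0 of 12, where Nanog was highest with a mean of 1.04 TPM. The endothelium list had 2 of 12, namely the VEGF receptor Flt1 at 11.9 ± 1.09 TPM and the factor Erg at 1.91 ± 0.471. The blood and macrophage list had 2 of 15, the lysosomal Cd68 at 13.4 ± 4.82 and the actin-binding Coro1a at 1.14 ± 0.116, while the globin genes Hba-a1 and Hbb-bt had 0 counts in all 3 libraries. The neuron and glia list had 3 of 14, among them Map2, a microtubule-associated protein, at 13.96 ± 2.11 and the beta-tubulin Tubb3 at 4.31 ± 0.384. A low level in a bulk library cannot tell few cells with much RNA from many cells with little.

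Lists of tissues that also come from mesenchyme were partly present. Of the smooth muscle and pericyte list 8 of 14 were present, led by the smooth muscle actin Acta2 at 218, 227 and 212 TPM, Tagln at 132 ± 9.95, Smtn at 45.3 ± 7.302, the proteoglycan Cspg4 at 24.8 ± 3.86 and Mcam at 7.85 ± 1.22. Of the cartilage list 7 of 12 were present, led by Sox9, the regulator of cartilage fate, with 40.2, 74.2 and 85.6 TPM and Acan, the cartilage proteoglycan aggrecan, with 10.4 ± 1.32. Sox9 was lowest in library 1. Of the bone list 5 of 10 were present, among them Spp1, the bone regulator Runx2 at 30.7 ± 7.22, Phex at 10.3 ± 0.316 and Ibsp at 1.903 ± 0.489, whereas Sp7 and Bglap, which mark bone-forming cells, had means of 0.176 and 0.539. The adipocyte list had 2 of 9, Fabp4 at 2.48 ± 0.751 and Cebpa at 1.903 ± 0.307.

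**Figure D2:**
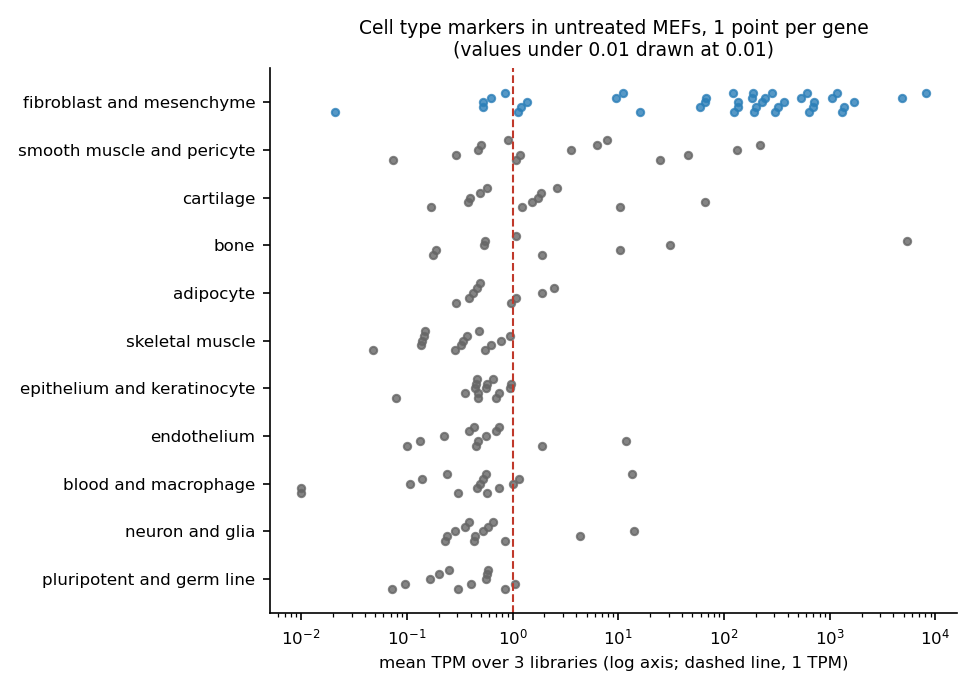
Mean TPM over the 3 untreated libraries on a log axis, with a point for each gene drawn from the cell type lists and a dashed line at 1 TPM. Most points of the fibroblast and mesenchyme list lie far to the right of the line, and those of skeletal muscle, epithelium and pluripotent cells lie at or left of it.

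The genes of proliferation were expressed throughout. All 43 genes of the mitosis list and all 40 of the DNA replication list were present in every library. Mki67, a marker of cycling cells, had 294, 361 and 351 TPM and Top2a, the topoisomerase of chromosome condensation, 744, 717 and 713. Genes of 2 brakes on the cycle were expressed too. Cdkn2a, which codes for p16 and ARF, had 206, 201 and 197 TPM and Trp53, the gene of p53, 135, 156 and 132. Cdkn1a, the p21 gene that p53 activates, had 2.48, 4.597 and 5.78 TPM. Gas1, a gene named for its expression in growth-arrested fibroblasts, had 397 ± 54.4 TPM. Of the list of p53 targets 22 of 24 were present.

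Imprinted growth genes were present in part. Of 24 imprinted growth genes 9 were present, led by Gnas at 209 ± 33.4 TPM, Peg10 at 112 ± 18.97, Impact at 107 ± 5.21, Igf2r, the receptor that clears IGF2, at 70.1 ± 3.15 and Sgce at 45.4 ± 3.38. The fetal growth factor gene Igf2 and the RNAs H19 and Meg3, which are strong in many embryonic tissues, had means of 0.264, 3.44 and 0.5198. None of the 47 genes annotated on the Y chromosome had a count in any of the 3 libraries. Xist, the RNA of the inactive X chromosome, had 15, 36 and 34 counts, a mean of 0.252 TPM. X-linked genes present had a median of 24.2 TPM beside 27.5 for autosomal genes. What sets the Y and Xist values, the cells or the reference used in counting, was not tested.

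In the positional code, only low-numbered Hox genes of the HoxA and HoxB clusters were present. Hox genes of low number are used toward the head of the embryo and those of high number toward the tail and the limb tips. Of 39 Hox genes 10 were present. HoxA had 7 of 11, and among the higher of them were Hoxa3 with 3.47, 7.004 and 7.699 TPM in libraries 1, 2 and 3, Hoxa5 with 4.94, 6.26 and 6.29 and Hoxa4 with 6.701, 4.85 and 4.59. Hoxa3 was lowest in library 1, and Hoxa4 was highest there. Hoxa6, with a mean of 3.15 ± 0.689, and Hoxa7, with 1.78 ± 0.386, were the last present by number. From Hoxa9, with a mean of 0.421, to Hoxa13 no HoxA gene reached the threshold in any library.

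HoxB had 3 of 10 but the highest levels. Hoxb3 had 21.6, 24.6 and 25.3 TPM in libraries 1, 2 and 3, Hoxb2 12.6, 21.2 and 16.97 and Hoxb4 12.6, 13.9 and 13.2. Hoxb3 was above the other 2 in every library, while Hoxb2 and Hoxb4 overlapped. HoxC had 0 of 9 and HoxD 0 of 9 present. Another 3 genes passed 1 TPM in some but not all libraries, namely Hoxb5 with 0.742, 1.33 and 0.561 TPM, Hoxc10 with 0.147, 1.25 and 0.371 and Hoxd9 with 1.32, 0.487 and 0.166, and in each a single library was over the line.

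**Figure D3:**
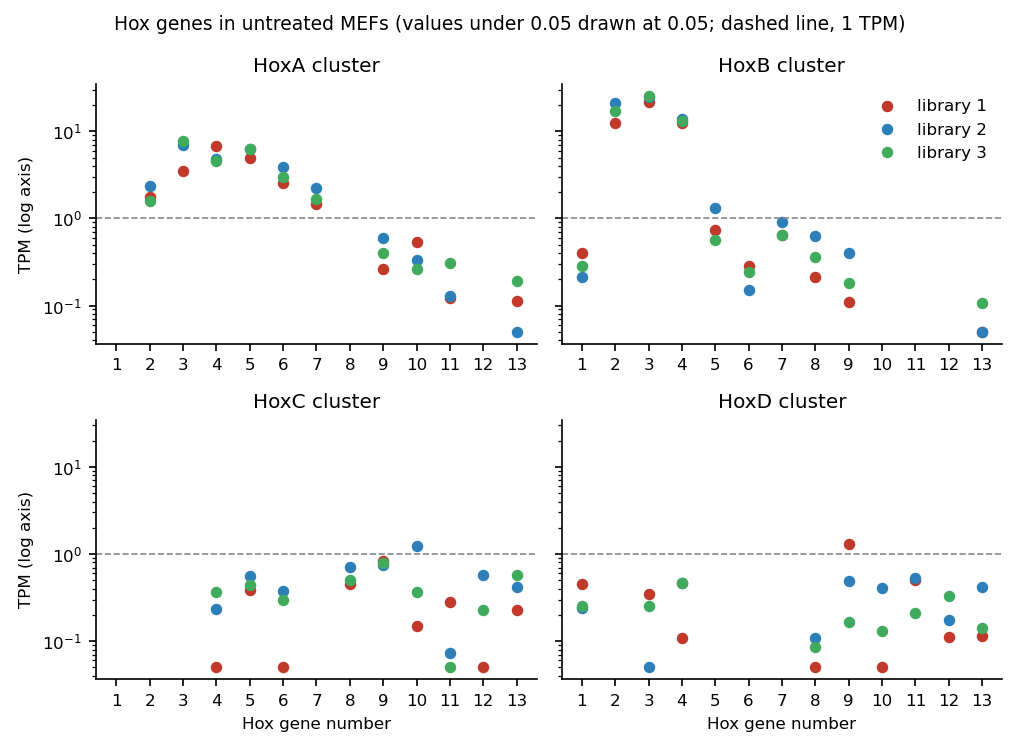
TPM of Hox genes, not all of which are drawn, by cluster and gene number in each untreated library, on a log axis with a dashed line at 1 TPM. Points above the line stop after Hoxa7 and, in all libraries together, after Hoxb4, and no HoxC or HoxD gene is above it in all 3 libraries.

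Other genes of body patterning gave a mixed picture, with 19 of 36 present. Tbx3, of limb and breast bud, had 30.7, 52.4 and 52.7 TPM, Tbx15, of body-wall skin and bone, 41.3 ± 5.13, Tbx5, of forelimb and heart, 28.1 ± 2.59, Shox2, of the upper limb segment, 26.3 ± 0.829 and Foxc1, of head and trunk mesoderm, 21.1 ± 1.15. The hindlimb genes Tbx4 and Pitx1 had means of 0.366 and 0.163. Tbx3 was lowest in library 1 and close in libraries 2 and 3.

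Paralog choice was read in 99 families with 350 members, as each member's share of its family's summed TPM. A share of at least 90% in every library was called one-sided. Of the 99 families, 2 (creatine kinases and LIN28) had a summed TPM under 10 and 3 had near-identical copies between which reads can be lost or split, leaving 94. Among those, 23 were one-sided and 71 shared, and in 25 the dominant member held under 60% in every library. The same member led in all 3 libraries in 90 of the 94, and the SD of the leading share had a median of 1.07 percentage points.

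Several metabolic families were one-sided in favour of the form found in most tissues. Eef1a1 took 100% of elongation factor 1 alpha over the neuronal and muscle form Eef1a2, and Pkm 100% of pyruvate kinase over the liver gene Pklr. Aldoa held 99.9% ± 0.0318 of aldolase over the brain form Aldoc, Pgam1 99.6% ± 0.114 over the muscle form Pgam2, and Ldha 96.97% ± 0.158 over Ldhb, the subunit typical of heart. The glucose carrier Slc2a1 held 97.98% ± 0.192 and the lactate carrier Slc16a1 97.4% ± 0.6598. In the respiratory chain Cox4i1 and Cox6a1 held 100% over Cox4i2 and the muscle form Cox6a2, and Cox8a held 99.9% ± 0.0785. Acaca, the acetyl-CoA carboxylase of fatty acid synthesis, held 98.05% ± 0.0636 over Acacb.

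Glycolysis and mitochondria held shared families as well. Hexokinase was split between Hk1 with 64.6% ± 1.801 and Hk2 with 33.6%, and phosphofructokinase between the liver form Pfkl with 60.2% ± 0.717 and the muscle form Pfkm with 24.4%. The ADP/ATP carriers were nearly even, with Slc25a4 at 52.4% ± 1.45 and Slc25a5 at 47.6%. Slc25a4 led in each library with 53.7, 52.6 and 50.8%, but with unique length in place of merged exons Slc25a5 led. Of the outer-membrane porins Vdac1 held 41.99% ± 2.42 and Vdac2 29.01%, and the carnitine palmitoyltransferase Cpt1a held 66.1% ± 2.25 over Cpt1c. Enolase gave no readable choice: Eno1 was listed at 2.87, 1.81 and 2.23 TPM and its copy Eno1b at 54.4, 40.8 and 54.1, and only 19.4% of the 75-base stretches of Eno1b occur in no other annotated gene.

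Ion pumps and receptors followed the same contrast between decided and shared families. Atp2a2 held 99.4% ± 0.0362 of the calcium pumps of the endoplasmic reticulum and Atp2b1 98.3% ± 0.09601 of those of the plasma membrane. Among receptors, Pdgfrb held 64.8% ± 0.888 and Pdgfra 35.2%, and Fgfr1 held 82.1% ± 1.43 over Fgfr2 with 16.4%. The EGF receptor family was led by Erbb2 with 55.6% ± 1.9 and Erbb3 with 43.2%, while Egfr itself had 0.282, 0.462 and 0.636 TPM, under the threshold used for presence. Of the TGF-beta ligands Tgfb3 held 81.98% ± 6.13 and Tgfb1 11.4%. Notch2 led Notch1 with 66.3% ± 0.6296 against 29.6%, and Fzd1 and Fzd2 were close at 32.2% ± 0.239 and 31.6% of the Frizzled receptors.

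Most families of the cytoskeleton and adhesion named here were shared. Actb held 88.1% ± 0.793 of the actins and Actg1 9.82%. Of their 75-base stretches 98.4 and 66.9% are unique, so the share of Actg1 may be too low. Nonmuscle myosin was led by Myh9 with 81.4% ± 1.36 over Myh10. The alpha-actinins Actn4 and Actn1 were near even at 51.8% ± 2.09 and 47.6%, as were the membrane linkers Msn and Rdx at 52.1% ± 3.91 and 45.03%, and by counts Rdx led. Tpm4 held 58.9% ± 1.14 of the tropomyosins. Tubb5 held 59.2% ± 1.18 of the beta-tubulins, and the alpha-tubulins were left out because their copies are too alike. Lmna held 83.7% ± 1.43 of the lamins and Itgb1 92.03% ± 0.365 of the integrin beta chains, whereas the alpha chains were spread, with Itga6 leading at 31.7% ± 1.45 by TPM and Itgav by counts.

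In the matrix, Col1a2 held 66.9% ± 3.44 of the chains of collagens I to III and Col1a1 20.5%. Collagen I is built from more Col1a1 than Col1a2 chains, and the RNA shares were in the opposite order in all 3 libraries. Col4a1 held 56.4% ± 1.09 of collagen IV, Col5a2 55.9% ± 3.65 of collagens V and XI and Col6a1 47.4% ± 3.43 of collagen VI, where by counts rather than TPM its share was 27.6% and Col6a3 led. Fbn1 led the fibrillins with 61.9% ± 2.63, Lama4 the laminin alpha chains with 82.1% ± 2.43 and Loxl1 the lysyl oxidases with 56.7% ± 1.05. The protease inhibitors Timp2 and Timp1 had 42.8% ± 2.63 and 42.6%, a difference within their SD, and which of the 2 led changed between libraries.

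Regulators of growth and chromatin gave these choices. Of the D cyclins Ccnd1 held 69.3% ± 3.53 and Ccnd2 17.6%, and their kinase was almost entirely Cdk4, with 97.6% ± 0.0552 over Cdk6. The YAP pair was led by Wwtr1, the gene of TAZ, with 66.4% ± 3.16 over Yap1. Their DNA-binding partners had the widest spread of all families read: Tead1 held 43.7, 55.04 and 55.6% in libraries 1, 2 and 3, while Tead2 held 41.4, 29.9 and 29.4%, so its lead was smallest in library 1. Twist1 held 86.3% ± 1.25 over Twist2, Zeb1 74.5% ± 1.55 over Zeb2, Prrx1 81.7% ± 1.45 over Prrx2 and Snai2 59.3% ± 5.76 over Snai1. The fetal chromatin protein Hmga2 held 95.6% ± 0.298 over Hmga1, of which 53.1% of the stretches are unique, and Igf2bp1 79.2% ± 1.04 of the IGF2 mRNA-binding proteins, which are also best known from embryonic cells. Dnmt1, the maintenance enzyme, held 96.2% ± 0.4703 of the DNA methyltransferases, Ezh2 87.6% ± 3.58 over Ezh1, H2afz 95.99% ± 0.703 over H2afv and Hif1a 99.3% ± 0.194 of the HIF alpha subunits.

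Of the genes with the printed TATA boxes, 3 were the dominant member of a family. H3f3b held 91.8% ± 0.301 of histone H3.3 over H3f3a, and Prdx1 held 35.2% ± 1.04 of the peroxiredoxins over Prdx4. Rpl22l1 held 74.8% ± 0.668 over its paralog Rpl22, a protein of the large ribosomal subunit. The Rpl22l1 result depended on length: by counts rather than TPM its share was 44.7%, so Rpl22 led. Rpl3 held 99.9% ± 0.0179 over the muscle form Rpl3l.

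**Figure D4:**
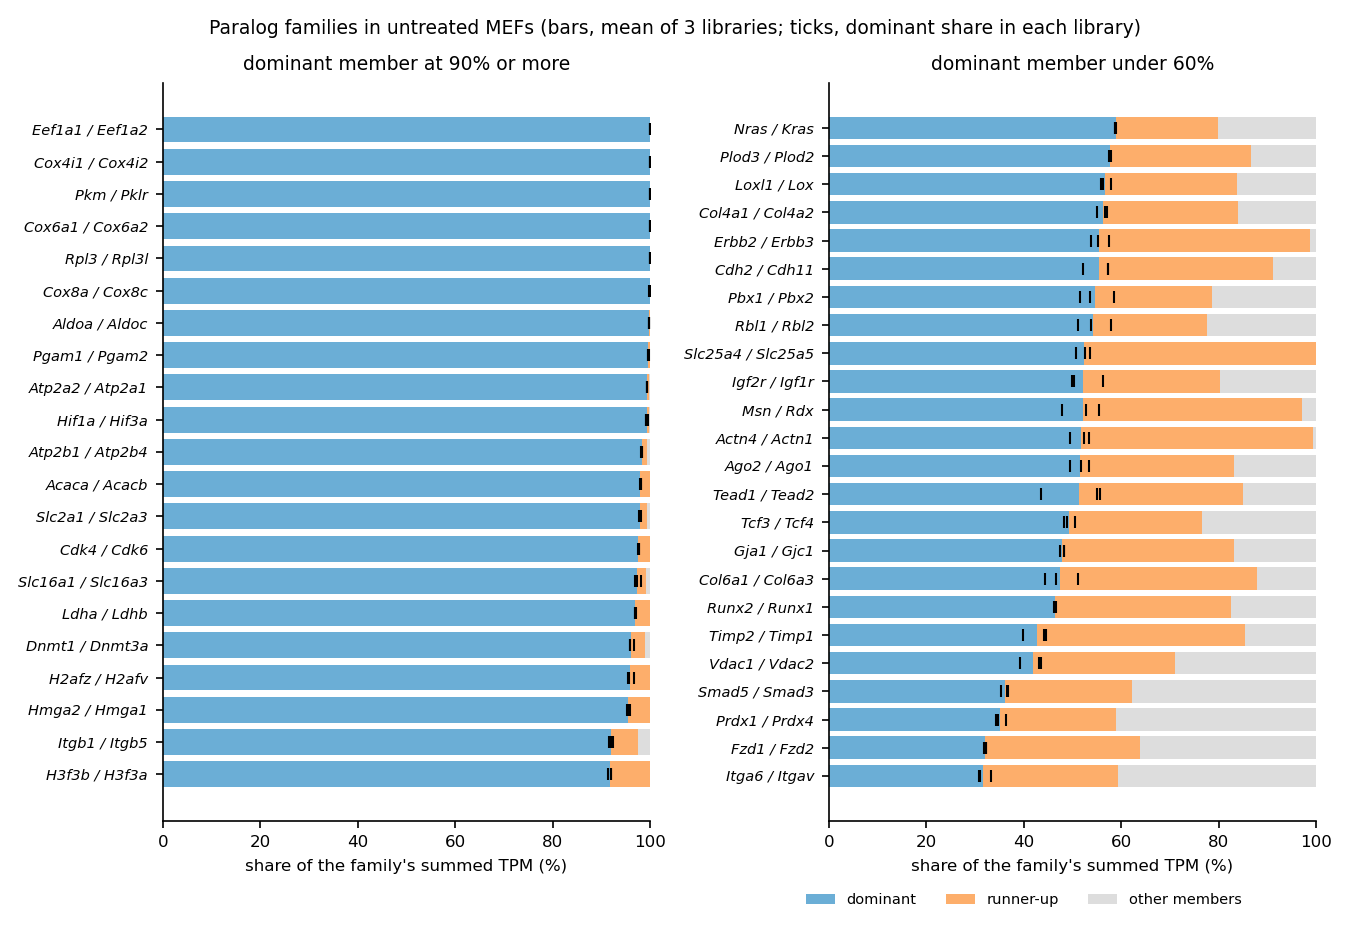
Share of a family's summed TPM held by its dominant member, its runner-up and the others, as the mean of the 3 untreated libraries, with ticks for the dominant share in each library. The left panel shows one-sided families and the right panel families in which the leader held under 60% in every library, where the ticks spread most for Tead1.

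Library 1 was set apart from the other 2 by more genes far below them than far above, and by a trend with transcript length. The split of 1 library against 2 comes from the data and not from a label, so it is described without a test. A gene was called when a library lay more than 1.5-fold from both others in the same direction, among 9967 genes with a mean of at least 5 CPM and with 0.5 counts added. In library 1, 328 genes were lower (3.29%) and 7 higher (0.0702%). By the same rule library 2 had 4 lower (0.0401%) and 2 higher (0.0201%), and library 3 had 3 lower (0.0301%) and 1 higher (0.01%). The imbalance lay in the far tail, because library 1 was below both others in 4262 genes and above both in 4374. After correction of its log ratio for length and GC content, 235 genes were still called lower, 201 of them among the 328 called as measured.

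The genes farthest below the other libraries came from many pathways. Pgp, a phosphatase of glycolytic by-products, had 2.97, 10.6 and 8.004 CPM in libraries 1, 2 and 3, a log2 difference of -1.61 from the mean of the other 2. Tulp3, a carrier of receptors into cilia, had 17.2, 42.4 and 46.9 CPM and Kdm6b, a demethylase of histone H3, 19.96, 42.3 and 48.7. Neat1, the scaffold RNA of nuclear paraspeckles, had 459, 1041 and 961 CPM. In each of these 4 the values of libraries 2 and 3 were closer to each other than to library 1, which was lowest. The rest of the farthest 15 were Pstpip2, Mbd6, Gltscr1, Zfp609, Fam65a, Tram2, Bcl9, Setd1b, Ankrd52, Acsf2 and Anxa11, with log2 differences from -1.38 for Pstpip2 to -1.12 for Anxa11. Bcl9 is a coactivator of beta-catenin and Setd1b a histone H3 methyltransferase.

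Genes with high counts were called as well. Chosen after their values were seen, Polr2a, the large subunit of RNA polymerase II, had 157, 313 and 333 CPM and Kmt2d, another histone H3 methyltransferase, 145, 269 and 283. In both the value of library 1 was under those of libraries 2 and 3, which lay close together. Of the 328 genes called lower, 205 had a mean over 20 CPM. They were 2.88% of the 7117 genes over that mean, beside 3.29% of all genes tested. Of the 328, 318 were protein coding, which is 3.26% of the 9765 such genes tested. The 328 lay on 20 chromosomes. Of the gene lists used here, 296 of the 328 were in none. The share of all tested genes in none was not counted, so this is not read as a trait of the called genes.

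The 7 higher genes were led by Lars2, the mitochondrial leucyl-tRNA synthetase, with 474, 139 and 81.4 CPM and a log2 difference of 2.16. Its values differed in all 3 libraries, and it was also one of the 3 genes called lower in library 3. The others were 2610001J05Rik, Gm6682, Snrnp25, Ndufaf2, Atp5l and Snord15b, and Atp5l, a subunit of ATP synthase, had 54.9, 36.03 and 35.5 CPM. The few genes that set apart the other libraries were Hist1h3g and Hist1h3d (higher) and 2310033P09Rik, Mrpl12, Txn2 and Trib3 (lower) in library 2, and Hmgn5 (higher) and Dancr, Mir6236 and Lars2 (lower) in library 3. The Hist1h3 genes are near-identical copies, so their counts are uncertain.

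The difference of library 1 followed transcript length over all genes. With genes in 10 bins of transcript length, the median log2 ratio of library 1 to the mean of libraries 2 and 3 went down without a break from 0.19 in the shortest bin (median 1107 bases) to -0.21 in the longest (median 8506 bases). The medians of library 2 against library 3 stayed between -0.03 and -0.02. Called genes were 9 of 994 in the shortest bin (0.905%) and 64 of 993 in the longest (6.45%), beside 3.29% of all. Over 9933 genes with a length, Spearman's rho of the ratio with length was -0.46, with GC content -0.05 and with CPM 0.03. For library 2 against 3 these were -0.01, 0.18 and -0.04, and all genes of a library share its preparation and depth.

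Called genes were also richer in G and C and in runs of C. The bin of highest GC content, of 10, had 62 of 993 genes called (6.24%), and genes in both the longest of 3 bins of length and the highest of 3 bins of GC had 104 of 1103 (9.43%), against 13 of 1104 (1.18%) in the shortest and lowest. A run of 6 C in the longest transcript stood in 227 of 322 called genes with a sequence (70.5%) and in 4051 of 9611 others (42.1%). The excess held within each of 5 bins of length, from 48.1 against 21.3% in the shortest to 82.3 against 63.8% in the longest. These bins were not split by GC content, so a difference in C runs apart from GC content was not tested. Runs of 6 G were in 54.3 against 36.5%, and runs of 6 T in 79.2 against 71.1% overall. Within the 5 bins of length, from shortest to longest, T runs were in 59.3, 70.7, 79.2, 75.3 and 90.3% of called genes. In other genes they were in 40.1, 63.4, 76.2, 84.4 and 93.0%, so the T excess was reversed in the longest bins. Runs of 6 A were in 70.8 against 68.4% overall but less frequent in called genes within each of the 5 bins of length, as in 69.9 against 81.8% in the fourth. The part of library preparation, RNA quality or culture in this pattern was not tested.

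The gene classes with the highest medians in library 1 included many short transcripts, with a median length of 1076 bases for cytosolic ribosomal proteins against 3570 for all genes. Cytosolic ribosomal proteins had a median log2 ratio of 0.26 with 79 of 80 genes above 0, mitochondrial ribosomal proteins 0.23 with 74 of 77 above 0, and the median of all genes was 0.0035. The snoRNAs had 0.26, replication-dependent histones 0.24, the proteasome 0.22 and the nuclear-encoded respiratory chain 0.20. After a smooth correction for length and GC these 6 medians were 0.07, 0.09, -0.01, 0.07, 0.10 and 0.04, all nearer to 0. Among those lists, 1 respiratory chain gene was called lower (3.29% of all genes were), and 1 respiratory chain gene and the snoRNA Snord15b were called higher (0.0702% of all genes were).

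Several classes kept most of their shift under the correction. Microtubule and intermediate filament genes went from 0.16 to 0.14, heat shock genes from 0.15 to 0.13, DNA replication genes from 0.14 to 0.12 and glycolysis from 0.12 to 0.10. Translation factors went from 0.16 to 0.13, although 2 of 23 were called lower (3 after correction, and 3.29% of all genes as measured). These were the poly(A)-binding protein gene Pabpc1 with 591, 1023 and 1238 CPM and the start-site factor Eif1 with 65.3, 106 and 121. The called members of this list thus lay on the other side of 0 from its median.

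Among the lists lower in library 1 were early response genes and brakes on the cell cycle, with few calls to set beside the 3.29% of all genes. The immediate early genes had a median of -0.15 before and -0.19 after correction, with 2 of 25 called (1 after correction), the RNA-decay factor Zfp36 with 3.93, 6.44 and 6.64 CPM and the zinc-finger factor Egr1 with 54.2, 89.96 and 84.5. The list of cell cycle arrest and quiescence had -0.21 and -0.17, with 2 of 18 called (1 after correction), the antiproliferative Tob1 with 6.43, 11.5 and 11.7 CPM and the factor Foxo1 with 3.45, 5.68 and 6.38. Patterning genes had -0.13 and -0.12, with Tbx3 called of 14 (0 after correction). Of 38 splicing factors 4 were called (3 after correction), namely Hnrnpa3 with 25.7, 51.5 and 48.8 CPM, Srrm2 with 597, 1009 and 1058, Srrm1 with 59.7, 91.2 and 101.4 and Hnrnpl with 127, 196 and 202, but the list's median was -0.03. Of 20 long non-coding RNAs in the list 2 were called, Neat1 and Malat1 (1 after correction).

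Among matrix genes, collagens, whose transcripts had a median length of 6493 bases, had a measured median of -0.05, near 0, that became 0.17 after correction for length and GC, the largest upward change of a list drawn in the plot of class medians, with 0 of 18 called. Matrix glycoproteins went from -0.08 to 0.01. The 248 zinc-finger genes had -0.01, and 5 of them (2.02%) were called, under the 3.29% of all genes. A single gene was called in the lists for blood (Cd68, of 1 gene over the minimum), cartilage (Sox9, of 2) and HoxA (Hoxa3, of 1). The same held for YAP targets (Tead1, of 14, not called after correction) and heat shock (Hsph1, of 14). Other lists with 1 call included bone, actin cytoskeleton and adhesion, cholesterol synthesis, chemokines and DNA replication. The summed TPM of the blood and macrophage list was 13.3, 24.2 and 21.6 in the 3 libraries, and its part in any other value was not tested.

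**Figure D5:**
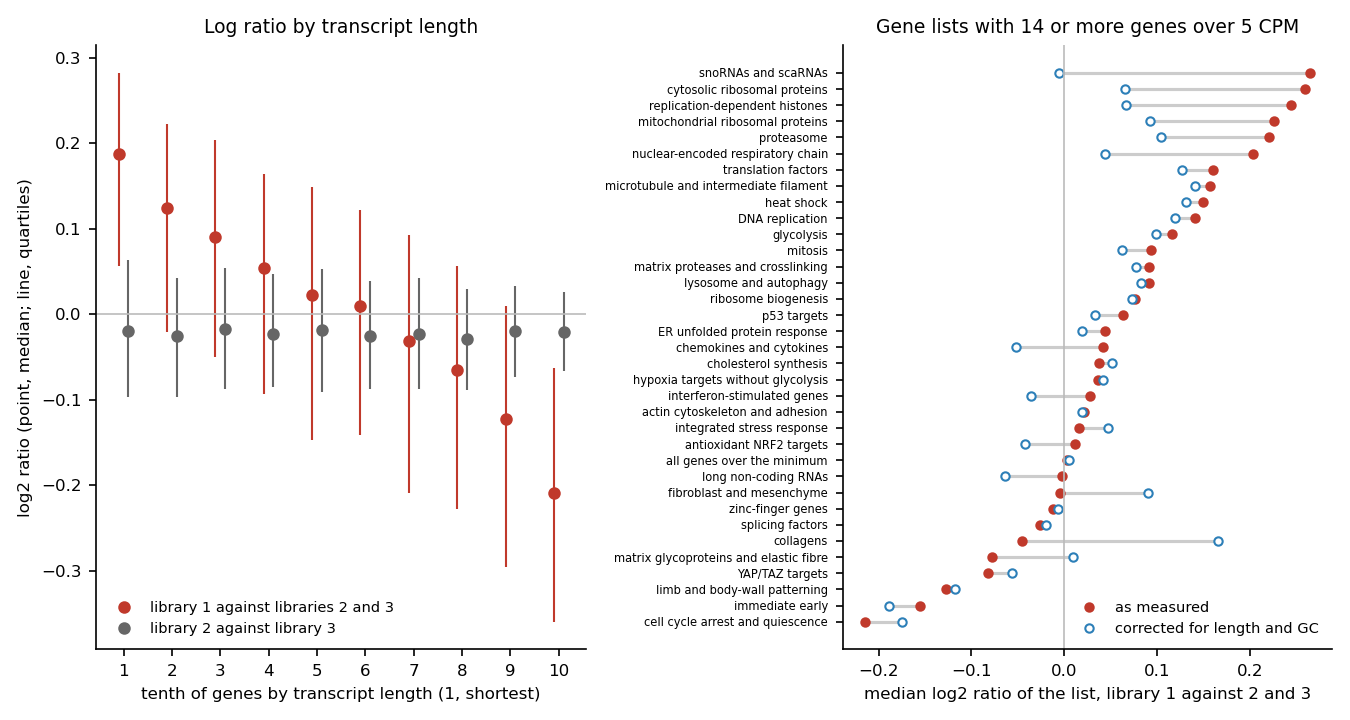
Left, median log2 ratio (points) and quartiles (lines) by bin of transcript length, for library 1 against the mean of libraries 2 and 3 and for library 2 against library 3. Right, median log2 ratio of each larger gene list in library 1 as measured and after correction for length and GC content, where ribosomal proteins move from 0.26 to 0.07 and collagens from -0.05 to 0.17.

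RNA from mtDNA, counted in the same libraries, shifted by transcript too. The large ribosomal RNA RNR2 took 11.3, 9.25 and 8.84% of all counts and the small ribosomal RNA RNR1 1.85, 2.81 and 3.01%, so in library 1 the first was highest and the second lowest. ND5, a subunit of complex I, had 899, 1585 and 1622 CPM and was lower in library 1. COX1, a subunit of complex IV, had 5886, 5209 and 5116 and was slightly higher there. CYTB had 1990.4, 2421 and 2519, again lowest in library 1. Other mtDNA genes had very few counts: COX2 had 24, 46 and 31, COX3 26, 23 and 42 and ATP6 10, 33 and 30. The reason was not tested. The counted share on mtDNA may therefore leave out part of the mitochondrial RNA.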

How the data were processed

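The authors trimmed 75-base paired reads with Trim Galore and cutadapt after FastQC, mapped them to mm10 with STAR 2.5.2a and counted unique fragments per gene with featureCounts. The names of the tools come from the submitters' processing notes and the study's methods. The deposited counts are raw and not normalized. Counting only unique fragments lowers genes with near-identical copies, and depletion rather than poly(A) selection keeps RNAs without a tail. The 24460 features comprised 39 on mtDNA and 24421 nuclear genes, of which 98.37% matched GENCODE M21 by symbol or older symbol. That match gave the coordinates, merged exon lengths and transcripts.

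CPM was scaled by TMM (edgeR 4.0.16, R 4.3.3), and TPM was computed over nuclear genes with a length (Python 3.11.15, pandas 2.3.3, numpy 2.4.6). The log ratio of library 1 was corrected by a lowess fit (span 0.3, statsmodels 0.14.6) on transcript length and then GC content. The calling step was tested on simulated data. The 56 gene lists, 99 paralog families and the samples were chosen with earlier results of these data known. Named genes were the 30 of highest CPM, the 20 of highest TPM, marker and Hox genes present in every library (the highest 5 of a list where more), the leader and runner-up of a family, up to 15 called genes farthest up and down in library 1, and the 4 farthest members of lists with over 2 times the background share of calls, with others named as chosen after their values were seen. Totals of 10455965 to 26688121 counts set the precision. No test was run, because the untreated libraries form 1 group. Alternatives covered scaling, filters, depth, length definition, thresholds and left-out libraries. Treated libraries were not analysed here, and a few genes are not reported here.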

Additional observations from a re-analysis of the deposited data

How the results depend on the processing

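The number of genes lower in library 1 was 299 with RLE size factors, 339 with total counts, 339 with TMM over nuclear genes, 322 with libraries thinned to the smallest total, 285 with 5 counts added and 235 after correction for length and GC, of which 201 were among the 328. Beside 328 of 9967 genes tested (3.29%), it was 205 of 7117 (2.88%) with a minimum of 20 CPM and 2452 of 23244 (10.5%) with no minimum. At 2-fold it was 21 (0.211%), and with library 3 or library 2 left out as comparator 373 (3.74%) and 493 (4.95%). The number higher, 7 (0.0702%), became 55 of 12147 (0.453%) at a minimum of 1 CPM and 4 of 7117 (0.0562%) at 20 CPM. It was 1752 of 23244 (7.54%) with no minimum, 1 at 2-fold, 2 after the correction, and 19 to 34 with a comparator left out. Leaving out library 1 gives no value for its difference.

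The 30 leading genes held 17.5% by TPM, 17.5% with the longest transcript as length and 20.4% with unique length. Present Hox genes were 3 at 5 TPM in place of 1. One-sided families were 35 at 80%. Present fibroblast markers ranged from 32 to 35 over all alternatives. Of the class medians that lay at least 0.1 from 0, 4 changed sign under an alternative: bone was 0.16 at a minimum of 20 CPM, blood 0.016 with no minimum, endothelium 0.057 and snoRNAs -0.0051 after the correction. Medians nearer to 0 also changed sign under the correction, among them those of collagens, matrix glycoproteins, NRF2 targets, interferon genes, chemokines and microRNAs. The leading paralog changed in 7 families by counts (ERM proteins, integrin alpha chains, L22 pair, calmodulins, E proteins, MRTF coactivators, collagen VI), in 2 with the longest transcript (TIMPs, L22 pair), in 1 with unique length (adenine nucleotide translocases), in 2 without library 2 (TIMPs, Frizzled receptors) and in 1 without library 3 (TIMPs). Unique length in the genome was not run because no genome was given, and unique length among annotated transcripts, chosen after seeing the data, took its place. No paired analysis was possible because the untreated libraries form 1 group and no result comes from a test.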
